A study of Mus musculus with 22 samples.

Results

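The circadian clock of the mouse liver was followed through 10 genes, Arntl, Clock, Npas2, Per1, Per2, Cry1, Cry2, Dbp, Hlf and Wee1, in animals with and without a pituitary and after growth hormone (GH). These 10 of 33767 gene names on the array were taken by name, and their probes by the RefSeq accession or gene name on the array. They had 15 of the 41174 probes on the array, and all 15 were among the 32513 probes bright enough to be tested. Arntl, Npas2, Per1, Dbp, Hlf and Wee1 had 1 probe each, Per2, Cry1 and Cry2 had 2, and Clock had 3, numbered here from the brightest to the dimmest.

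Clock proteins work as a feedback loop that runs through day and night. Arntl (also called Bmal1) pairs with Clock, or with its relative Npas2, and the pair switches on genes that carry an E-box. Among those genes are Per1, Per2, Cry1 and Cry2, whose proteins then block the pair, and the output factors Dbp, Hlf and Tef, which pass the rhythm on to liver enzymes and transporters. The nuclear receptors Nr1d1 and Nr1d2 close a second loop by holding down Arntl, Npas2 and Clock. In mouse liver, messages of Arntl and Npas2 peak at times of day when those of Dbp and Per are low. The level of each message therefore moves with the hour of kill, and the hour of kill of the groups is not given in the sources used here. A difference between groups and a difference in the hour of kill cannot be told apart for any result below.

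Liver RNA came from ICR mice aged 8 weeks, in pools of 2 to 5 mice. Sham mice had a mock operation and vehicle. Hypox mice had lost the pituitary as adults, and so had all mice that received GH. One GH group of each sex was killed at 30 min and another at 90 min after a single dose, and in the remaining group of each sex a further dose followed 4 h later and death came 30 min after it, which is called 2 injections here. Males and females made up separate groups, 10 in all. Each of 22 Agilent arrays compared a pool of 1 group with a pool of another in 2 colours, with 2 arrays of opposite dye for each of 11 comparisons. A text on the design names male Hypox as the partner of females after 2 injections, while the sample labels name female Hypox, and the Y-linked Ddx3y, at -0.10 and 0.02 on the log2 scale on those 2 arrays, fits female Hypox.

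Values are log2 ratios of the first named group over the second, so that 1 is a doubling. The mean of a comparison is given ± SE, from a limma fit to all 22 arrays. A probe was called, and is said to have risen or fallen, where its Benjamini-Hochberg adjusted p over all probes tested was under 0.05 and both arrays went the same way. A gene was called where any of its probes was. The labels do not say whether the arrays of a comparison held separate mice, and p values then measure the spread between these arrays, which may be technical. In each channel 57.1% to 77.7% of spots cleared the background. The 57.1% was a single channel, that of female Hypox (a pool of 2 mice) on the second array of female Hypox over sham. The next lowest channel was at 69.3%. That second female array also had the most outlier spots, 159. All 5 hepatocyte markers (Alb, Apoa1, Ttr, Trf and Hpd) cleared it in every group. In bulk liver, fewer cells of a type and less RNA per cell cannot be told apart.

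The livers without a pituitary held another balance of clock messages than sham livers in both sexes: less of the activators Clock and Npas2 and of the repressor Cry1, and more of the output factor Dbp, of Cry2 and of Wee1. In males 8 of the 10 genes were called, 4 higher and 4 lower, against 37.6% of all probes tested, 18.2% of them higher and 19.5% lower. In females 7 of the 10 were called, 3 higher and 4 lower, against 31.5% of all probes, 14.4% higher and 17.1% lower. By probe, 11 of 15 were called in males and 10 of 15 in females. With median centring of the arrays in place of loess, Npas2, Hlf and Wee1 lost their calls in females, and Hlf in males. Clock then kept its female call by probe 3 alone. In females Npas2 and Wee1 also lost their calls with the arrays of the comparison fitted alone, and Npas2 with the authors' ratios. The median size of the change over the 15 probes was 1.27 in males and 0.85 in females, against 0.19 and 0.16 over all probes tested.

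**Figure D1:**
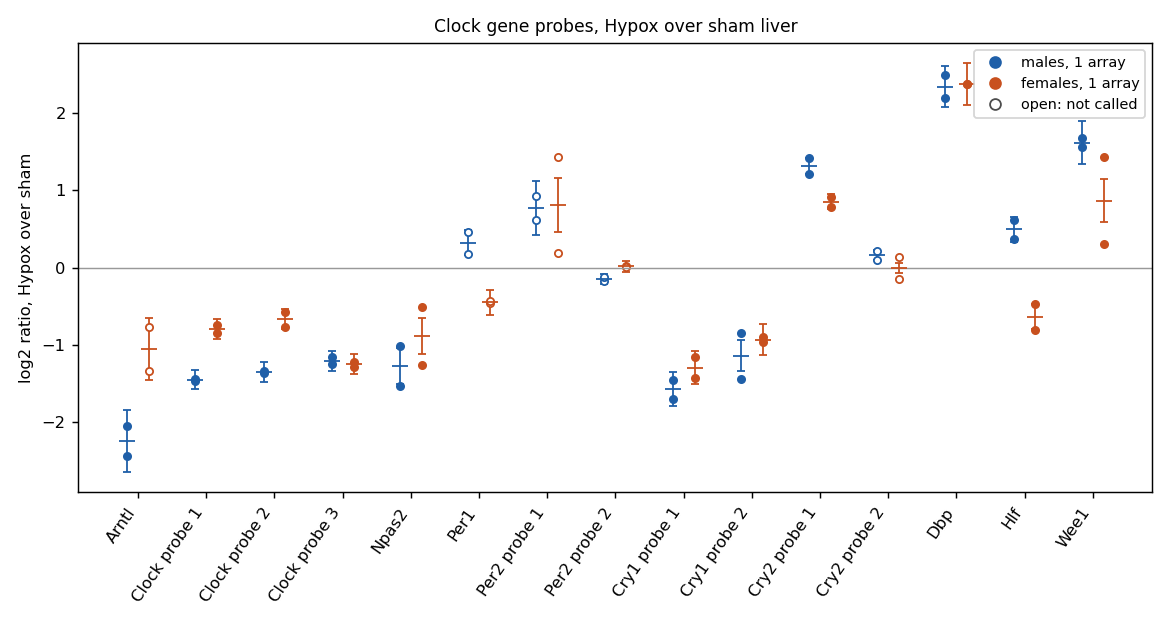
Log2 ratio of Hypox over sham liver for each of the 15 clock gene probes. Points are single arrays (blue males, orange females, open where the probe was not called), and bars are the mean ± SE of the fit. Dbp stands above 2 in both sexes, the Clock, Npas2 and Cry1 probes lie below 0 on every array, and the dim second probes of Per2 and Cry2 stay near 0.

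Arntl, the activator without which the liver clock does not run, was at -2.43 and -2.06 on the 2 male arrays. Both lay far below 0, and Arntl fell to -2.25 ± 0.40 (4.74-fold lower, adjusted p = 0.00076, limma). In females the arrays gave -0.77 and -1.34, a mean of -1.06 ± 0.40 that did not pass the test (adjusted p = 0.063). The female arrays lay above both male arrays, but the difference between the sexes, -1.19 ± 0.57, did not pass its own test (adjusted p = 0.25).

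Clock, the partner of Arntl, fell with all 3 of its probes in both sexes. Its brightest probe was at -1.46 and -1.44 in males and at -0.74 and -0.84 in females. The means were -1.45 ± 0.13 (adjusted p = 2.95e-06) and -0.79 ± 0.13 (adjusted p = 0.00055). Probe 2 gave -1.35 ± 0.13 in males and -0.67 ± 0.13 in females. The brighter probes thus read a larger fall in males, by -0.66 ± 0.18 (adjusted p = 0.048) and -0.68 ± 0.18 (adjusted p = 0.043) in the test of the difference. Probe 3, which is much dimmer, read -1.21 ± 0.13 and -1.25 ± 0.13 and no such difference (0.04 ± 0.18, 95% interval -0.35 to 0.44). The 3 probes thus all fell and did not all differ between the sexes, and the difference lost its call for both brighter probes when any 1 of the 4 arrays was left out (-0.57 to -0.79).

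Npas2, which can stand in for Clock, was at -1.53 and -1.02 in males and at -0.51 and -1.26 in females. All 4 arrays were below 0, and the ranges of the sexes overlapped. It fell by 1.27 ± 0.23 in males (adjusted p = 0.00094) and by 0.88 ± 0.23 in females (adjusted p = 0.012). Its signal was low: it was above background in 38 of the 44 channels. The call was lost without the first male array (-0.91, adjusted p = 0.071) and without the second female array (-0.55, adjusted p = 0.32).

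The cryptochromes went opposite ways. Cry1 was at -1.70 and -1.45 in males and at -1.16 and -1.43 in females for its brighter probe. It fell to -1.58 ± 0.22 (2.98-fold, adjusted p = 0.00011) and -1.30 ± 0.22 (2.45-fold, adjusted p = 0.00072). The second Cry1 probe fell too, to -1.14 ± 0.20 and -0.93 ± 0.20. Its call was lost in males without the first array (-0.83, adjusted p = 0.053) and in females without either (-0.92 and -0.95, adjusted p = 0.051 and 0.059) or with median centring (-0.83, adjusted p = 0.12). Cry2 was at 1.21 and 1.42 in males and at 0.92 and 0.78 in females for its brighter probe. No array of 1 sex lay within the range of the other, but the difference between the sexes was not called in its own test. Cry2 rose to 1.32 ± 0.10 (adjusted p = 6.48e-07, limma) and 0.85 ± 0.10 (adjusted p = 4.46e-05). The second Cry2 probe, the dimmest of the 15, read 0.16 ± 0.06 and 0.00 ± 0.06 and was not called. Why the Cry2 probes differ was not tested.

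The period genes, whose proteins join the cryptochromes in the block, were not called in either sex. Per1 was at 0.46 and 0.18 in males and at -0.46 and -0.44 in females. The signs were opposite in the sexes, with means of 0.32 ± 0.16 (adjusted p = 0.15) and -0.45 ± 0.16 (adjusted p = 0.053), and the difference of 0.77 ± 0.23 had an adjusted p of 0.068. The brighter Per2 probe was at 0.62 and 0.92 in males and at 1.43 and 0.19 in females. Its 4 arrays were above 0, but the spread left means of 0.77 ± 0.35 and 0.81 ± 0.35 short of the test (adjusted p = 0.11 and 0.10). The dim Per2 probe read -0.15 ± 0.07 and 0.01 ± 0.07.

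Sequences just upstream of repressor genes are shown because the Arntl and Clock pair acts on these genes through E-boxes, and because Cry1 and Cry2 went opposite ways. They are the 250 bases before the start of transcription in the RefSeq annotation of GRCm38.p6, for Per1 at chr11:69098699-69098948 on the plus strand, for Cry1 at chr10:85185055-85185304 and for Cry2 at chr2:92434070-92434319, both on the minus strand. Capitals mark matches to an E-box, whose letters are CACGTG. They also mark a variant of it, searched as CACGTT and printed here as it reads from the other strand. The remaining capitals mark an element that the receptors Nr1d1 and Rora can bind, searched as AGGTCA, which in Per1 lies on the other strand.
Per1: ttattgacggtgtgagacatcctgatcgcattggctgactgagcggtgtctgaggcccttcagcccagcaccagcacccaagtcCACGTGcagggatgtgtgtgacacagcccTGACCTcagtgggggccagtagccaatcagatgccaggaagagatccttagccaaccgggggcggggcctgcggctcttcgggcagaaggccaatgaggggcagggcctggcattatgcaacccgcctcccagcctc
Cry1: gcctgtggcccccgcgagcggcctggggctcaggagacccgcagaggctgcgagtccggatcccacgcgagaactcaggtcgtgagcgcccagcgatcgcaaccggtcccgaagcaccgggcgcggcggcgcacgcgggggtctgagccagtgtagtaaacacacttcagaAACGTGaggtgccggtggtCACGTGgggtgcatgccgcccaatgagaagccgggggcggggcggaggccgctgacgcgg
Cry2: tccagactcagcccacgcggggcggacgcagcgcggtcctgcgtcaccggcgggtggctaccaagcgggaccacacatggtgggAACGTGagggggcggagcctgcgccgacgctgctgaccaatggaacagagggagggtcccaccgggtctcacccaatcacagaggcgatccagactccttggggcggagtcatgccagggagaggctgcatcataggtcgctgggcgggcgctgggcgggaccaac
Arntl: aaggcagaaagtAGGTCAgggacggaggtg
The E-box of Per1 began 166 bases and its AGGTCA element 137 bases before the start. Cry1 held an E-box at 60 and the variant at 79 bases before the start, and Cry2 held the variant alone, at 166 bases. For Arntl only the 30 bases around an AGGTCA element are shown, at chr7:113207530-113207559 on the plus strand, where the AGGTCA element began at base 32 after the start.

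Matching letters are a description of these windows and no evidence that a factor sits there. The letters were searched on both strands in windows of 250 bases before to 50 bases after each start, and no motif found here overlapped another. Of the 10 genes, 8 had 12 windows in the RefSeq table, and Per2 and Wee1 were not among them. An E-box was in 2 of the 12 windows and in 7.15% of all 32851 windows. The variant was in 2 of 12 (4.68% of all) and the AGGTCA element in 3 of 12 (16.3% of all), with Clock, 119 bases before the start, beside Arntl and Per1. The elements TTATGTAA and TTACGTAA, which Dbp, Hlf and Tef can bind, were in 0 of the 12 (0.938% and 0.119% of all). A cAMP response element, TGACGTCA, lay 9 bases before the start of Hlf and in 1.79% of all windows. The windows of Dbp and Npas2 held none of these letters.

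Of the outputs Dbp, Hlf and Wee1, Dbp, a rhythmic activator of liver enzymes, had the largest means. It was at 2.20 and 2.49 in males and at 2.37 and 2.38 in females. All 4 arrays were above 2, and the sexes overlapped. Dbp rose to 2.34 ± 0.27 in males (5.08-fold, adjusted p = 2.63e-05) and to 2.38 ± 0.27 in females (5.19-fold, adjusted p = 4.49e-05), with a difference between the sexes of -0.03 ± 0.38 (95% interval -0.86 to 0.80).

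Hlf, a relative of Dbp that binds the same elements, did not follow it. It was at 0.37 and 0.62 in males and at -0.47 and -0.80 in females. The male arrays were above 0 and the female arrays below. Hlf rose by 0.49 ± 0.16 in males (adjusted p = 0.028) and fell by 0.64 ± 0.16 in females (adjusted p = 0.0089). The difference of 1.13 ± 0.23 passed its test (2.19-fold, adjusted p = 0.011) and lost its call in 3 of the 4 fits that left out 1 array. It was 1.13 without either male array (adjusted p = 0.079 and 0.064) and 0.81 without the second female array (adjusted p = 0.11), and kept its call without the first female array (1.45, adjusted p = 0.0082). Of the 10 genes, Hlf and Clock were called in this test of the difference between the sexes, against 6.66% of all probes (3.04% higher and 3.62% lower). The rise in males lost its call without either male array (adjusted p = 0.19 and 0.16), and the fall in females without the second female array (-0.32, adjusted p = 0.36).

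Wee1, a kinase that delays mitosis and whose message is driven by the clock in mouse liver, was at 1.56 and 1.67 in males. It was at 1.43 and 0.30 in females, so the lower female array stood apart from the other 3. Wee1 rose by 1.62 ± 0.28 (3.07-fold, adjusted p = 0.00057) and by 0.87 ± 0.28 (adjusted p = 0.031). Without the first female array the female value was 0.26 (adjusted p = 0.66). The difference between the sexes, 0.75 ± 0.39, did not pass the test (adjusted p = 0.30).

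Further genes of the clock were read from a list of 13 partners with probes. In males 8 of 13 were called, 7 higher and 1 lower, and in females 7 of 13, 5 higher and 2 lower. The shares of all probes were the 37.6% (18.2% higher) and 31.5% (14.4% higher) given above. Tef, of the same family as Dbp and Hlf, was at 2.47 and 2.59 in males and 1.97 and 1.93 in females for its brightest probe. Nr1d2, a repressor of Arntl, was at 2.50 and 1.83 in males and 1.77 and 2.38 in females. These and Nr1d1 (1.64 ± 0.18 and 1.69 ± 0.18) and Per3 (1.40 ± 0.23 and 1.20 ± 0.23) were the largest rises of the list in both sexes, with means of 2.53 ± 0.19 and 1.95 ± 0.19 for Tef and 2.16 ± 0.18 and 2.07 ± 0.18 for Nr1d2. The list's median over its probes was 0.30 in males and 0.06 in females, against 0.00 for all probes tested in both.

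A list of 8 other liver outputs moved both ways. In males 7 of 8 were called, 5 higher and 2 lower, and in females 4 of 8, 1 higher and 3 lower. Of all probes 18.2% were higher and 19.5% lower in males, and 14.4% and 17.1% in females, so that the female share of higher outputs was near that of all probes. The largest changes were falls of Lpin1, a phosphatase of fat synthesis (-2.97 ± 0.20 in males and -3.39 ± 0.20 in females for its brightest probe), and of Alas1, the first enzyme of haem synthesis (-2.80 ± 0.43 and -3.05 ± 0.43 for its second probe). Por, the electron donor of the P450 enzymes, was chosen after its values were seen: it was at 0.44 and 0.63 in males and at -0.97 and -0.78 in females. Like Hlf, it lay above 0 in males and below 0 in females, and the difference of 1.41 ± 0.14 was called (adjusted p = 5.69e-05). Also chosen after its values were seen, Gys2, the glycogen synthase of liver, rose by 2.17 ± 0.19 and 2.29 ± 0.19.

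**Figure D2:**
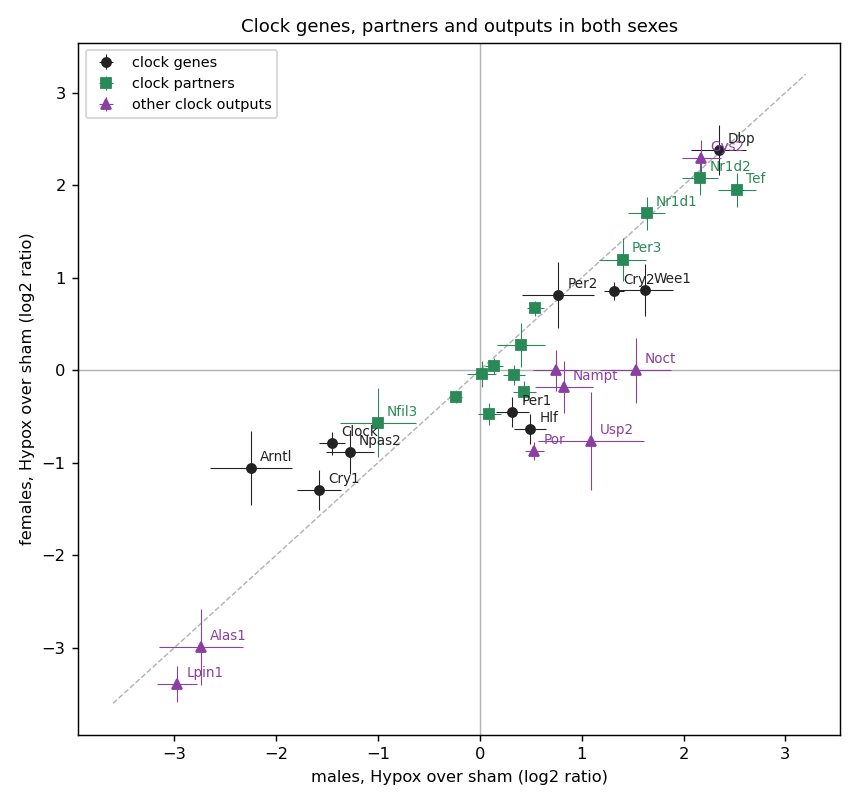
Hypox over sham in males (horizontal) against females (vertical), as log2 ratios ± SE, for the brightest probe of each clock gene, clock partner and other clock output. The dashed line marks equal values in both sexes. Dbp, Tef, Nr1d1, Nr1d2 and Gys2 lie together at the upper right, and Hlf, Per1, Por and Usp2 lie below 0 in females and above 0 in males.

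Marker lists moved with the same comparison. Of 8 skeletal muscle markers 6 fell in male Hypox over sham (median over probes -2.48, with -2.27 and -2.78 on the arrays). Their summed signal was 11233 to 38664 in the channels of male sham and 1459 to 7354 in those of male Hypox, and all their probes were above background somewhere in both groups. In female Hypox over sham the muscle list had 0 of 8 genes called and a median of 0.04. Its summed signal was 1765 to 5107 in the channels of female sham. Over all channels of female Hypox it was 1789 to 73814, with a median of 1918. Of 5 lymphocyte markers 4 rose in males and 3 in females (medians 0.86 and 0.39). Their summed signal was 751 to 945 in male sham, 859 to 1033 in female sham, 1810 to 2195 in male Hypox and 1346 to 1972 in female Hypox. Summed signals of 5 endothelial, 5 stellate cell and 5 macrophage markers were lower in every female Hypox channel than in any female sham channel. They were 38186 to 46664 against 50694 to 51688, 49427 to 68404 against 77501 to 82775, and 25487 to 32022 against 34127 to 38520. In males the ranges of Hypox and sham overlapped for these lists. The part of all these markers in the clock gene results was not tested.

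Lists of signals that reach the liver clock were read against 37.6% of all probes called in males and 31.5% in females. Of 7 genes induced by glucocorticoids, 5 were called in males, 2 higher and 3 lower, and 2 in females, both lower, the female share being near that of all probes. Fkbp5, a chaperone of the glucocorticoid receptor, fell by 1.15 ± 0.14 in males and by 2.32 ± 0.14 in females for its brightest probe, and Klf9 fell by 1.71 ± 0.18 and 1.82 ± 0.18. The metallothioneins Mt1 (2.87 ± 0.36) and Mt2 (2.67 ± 0.40) rose in males. Of 7 heat- and cold-responsive genes, 7 were called in males, 1 higher and 6 lower, and 5 in females, 2 higher and 3 lower. The chaperone Hsph1 fell by 3.29 ± 0.19 in males and 1.76 ± 0.19 in females, and Hsp90aa1 fell by 2.86 ± 0.18 and 1.32 ± 0.18. The RNA-binding Cirbp, induced by cold, rose by 2.06 ± 0.12 in males and 1.19 ± 0.12 in females. Of 8 fasting-induced genes, 3 were called in males, 2 higher and 1 lower, a share near that of all probes. In females 4 were called, all lower, against 17.1% of all probes lower. The largest change was a fall of Angptl4 (-3.08 ± 0.29 and -2.40 ± 0.29). Whether these signals take part in the change of the clock genes was not tested.

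Some clock messages were called between the sexes in Hypox livers and none in sham livers, which is no test that the 2 contrasts differ. Of the 10 genes, the test of the sex difference in the Hypox effect given above called Hlf and Clock alone. Sham males over sham females had 0 of 10 genes called with limma, against 8.51% of all probes (5% higher and 3.51% lower), and 3 genes at an unadjusted p under 0.05. The brighter Per2 probe was at 1.42 and 0.36 there (0.89 ± 0.35, adjusted p = 0.16) and Dbp at 0.86 and 0.66 (0.76 ± 0.27, adjusted p = 0.12). The summed muscle signal was 11233 to 38664 in male sham and 1765 to 5107 in female sham, and cholangiocyte markers were higher in male sham too. Summed macrophage, endothelial and stellate cell markers were lower in every male sham channel than in any female one. The part of these markers was not tested. In Hypox males over Hypox females 4 of 10 genes were called, 3 higher (0.79% of all probes) and 1 lower (0.778%), against 1.57% either way. Cry2 was at 0.58 and 0.69 for its brighter probe, Hlf at 0.80 and 0.95, and Wee1 at 0.81 and 1.89. All were higher in males on both arrays, with means of 0.63 ± 0.10 (adjusted p = 0.0097), 0.88 ± 0.16 (adjusted p = 0.022) and 1.35 ± 0.28 (adjusted p = 0.035). Probe 2 of Clock, at -0.75 and -0.40, was lower (-0.58 ± 0.13, adjusted p = 0.047), while Clock probes 1 and 3 were not called. Arntl was at -1.76 and -0.94 and Dbp at 1.06 and 0.73, with means of -1.35 ± 0.40 (adjusted p = 0.11) and 0.89 ± 0.27 (adjusted p = 0.12) that were not called. With 1 array left out, 0 or 1 of the 4 genes was called: the means were then 0.47 or 0.80 for Cry2, 0.65 or 1.1 for Hlf and 0.78 or 1.92 for Wee1.

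The same contrast after GH gave like values from other arrays. In males over females 30 min after GH, 2 of 10 genes were called, both higher, against 0.252% of all probes higher, 0.218% lower and 0.471% either way. Cry2 was at 0.74 and 0.54 (0.64 ± 0.10, adjusted p = 0.012) and Wee1 at 1.64 and 1.21 (1.43 ± 0.28, adjusted p = 0.047). Hlf was at 0.99 and 0.60 (0.79 ± 0.16, adjusted p = 0.057). The groups and arrays of this comparison are others than those of the Hypox contrast. Cry2 and Wee1 lost their calls without either array, with 0.64 both times for Cry2 and 1.18 or 1.68 for Wee1. Arntl was at -2.41 on the first array and -0.29 on the second, and Dbp at 1.81 and 0.27. Array 1 was far from 0 for both genes and array 2 close to it, and the median of the muscle markers was 3.16 on array 1 and -0.01 on array 2.

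Levels of all 10 groups on 1 scale came from a second fit that runs round the loop of arrays, as log2 levels relative to female sham, given without a test. Dbp was at 0.80 ± 0.22 in male sham. All 4 female groups without a pituitary lay between 2.01 and 2.34, and all 4 male ones between 2.99 and 3.47. In the order of Dbp levels, neighbours differed by more than 2 SE at 3 steps: from female to male sham, from male sham to the lowest female Hypox group, and from the highest female to the lowest male group without a pituitary. Arntl was at -0.11 ± 0.32 in male sham, between -0.54 and -1.18 in the 4 female groups without a pituitary, and between -2.40 and -3.10 in the male ones. Its single step beyond 2 SE was the one from the male Hypox groups to the female ones. Wee1 had a single such step too, from the highest female group at 0.82 ± 0.35 to the lowest male group without a pituitary at 1.61 ± 0.31.

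**Figure D3:**
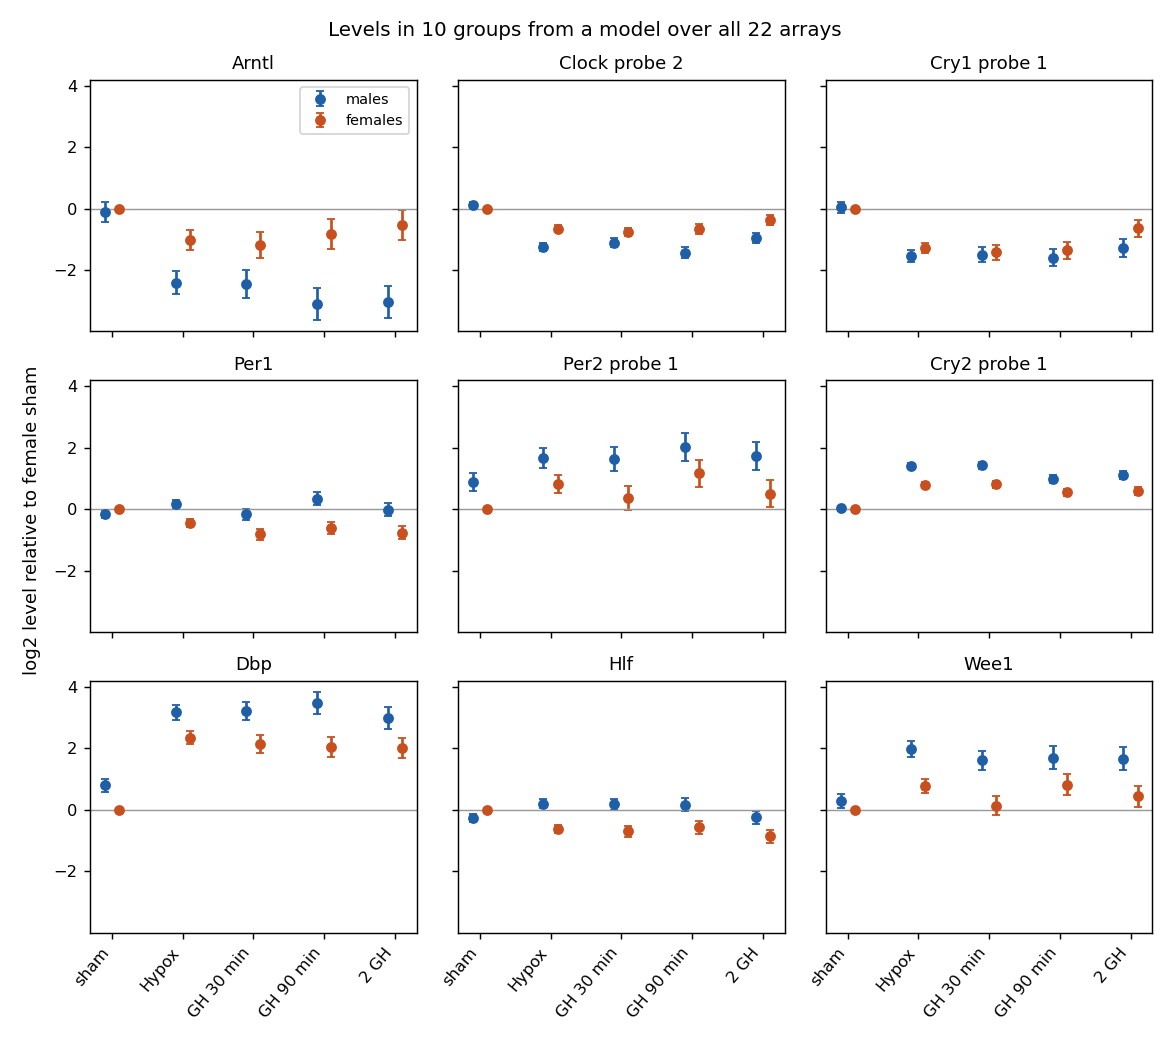
Log2 level relative to female sham in 10 groups (blue males, orange females; bars ± SE) for 9 probes, from 1 fit to all 22 arrays. Sham males and females lie close together for Arntl, Clock, Cry1 and Cry2, and in each treatment without a pituitary males lie below females for Arntl and above them for Cry2, Dbp, Hlf, Wee1 and Per1.

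For Per1 the 4 female groups without a pituitary were at -0.44 to -0.82 and the 4 male ones at -0.16 to 0.33. Male sham was at -0.15 ± 0.13 and female Hypox at -0.44 ± 0.13, both relative to female sham. No neighbours in its order differed by more than 2 SE, which compares adjacent groups only. Direct arrays and the way round the loop differed by a median size of 0.08 over all probes for sham males over females, and by 0.11 for males over females 30 min after GH. Several clock probes differed by more. Dbp read 0.76 directly and 0.93 by the other way in sham, and 1.04 and 1.18 after GH. Wee1 read 0.18 and 0.60 in sham. Clock probe 3 changed sign there, from 0.10 to -0.25. After GH, Clock probe 1 read -0.45 directly and -0.13 by the other way, and Npas2 -0.71 and -0.15, the largest gap over the 15 probes (-0.56).

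Few of these messages were called 30 or 90 min after growth hormone. Over all probes the 2 arrays at 30 min correlated weakly (r = 0.17 in males and 0.29 in females), so that effects may have gone undetected. The comparisons of a sex with Hypox may share mice, since the design text lists fewer Hypox mice than the pools of all arrays add up to, and the labels do not say which pools recur. At 30 min after 1 injection 0 of 10 genes were called in males, against 2.66% of all probes (1.89% higher and 0.769% lower), and 0 in females, against 0.0154% (0.00923% higher and 0.00615% lower). At an unadjusted p under 0.05 there were 0 and 2 genes. Dbp was at 0.09 and 0.06 in males, both near 0. In females it was at -1.05 and 0.63, and Arntl at 0.40 and -0.91, so that the arrays of this comparison disagreed in sign for both genes.

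At 90 min 1 of 10 genes was called in males, against 1.67% of all probes lower, 3.39% higher and 5.06% either way. It was Cry2, at -0.45 and -0.40 for its brighter probe, which fell by 0.42 ± 0.10 (1.34-fold, adjusted p = 0.025). The second Cry2 probe read -0.11 ± 0.06. Cry2 lost its call without either array (-0.51 and -0.34). The muscle median was 1.65 on the first array and 0.05 on the second. In females 0 of 10 were called, against 3.02% (2.28% higher and 0.741% lower), with 1 gene at an unadjusted p under 0.05: Cry2, at -0.42 and -0.08 (-0.25 ± 0.10, adjusted p = 0.22). The difference between the sexes for Cry2, -0.17 ± 0.14 (95% interval -0.47 to 0.13), was not called.

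After 2 injections 0 of 10 genes were called in males, against 20.5% of all probes (11.9% higher and 8.57% lower), and 0 in females, against 8.7% (4.78% higher and 3.92% lower). At an unadjusted p under 0.05 there were 3 and 2 genes. Cry1 in females was at 0.67 and 0.61 for its first probe and at 0.55 and 0.64 for its second. All 4 values were above 0, opposite in sign to the fall in Hypox over sham, and the means of 0.64 ± 0.22 and 0.59 ± 0.20 had adjusted p values of 0.093 and 0.086. In males Clock probe 1 was at 0.49 and 0.16 (0.33 ± 0.13, adjusted p = 0.093) and Hlf at -0.59 and -0.30 (-0.44 ± 0.16, adjusted p = 0.073). Dbp was not called in males (-0.19 ± 0.27, 95% interval -0.78 to 0.40) or in females (-0.33 ± 0.27, 95% interval -0.92 to 0.26), and both intervals reach to either side of 0. On the female arrays all 8 muscle markers fell (median -3.24, with -3.41 and -3.07 on the arrays). Their summed signal was 6691 to 8097 in the channels of females after 2 injections. Over all channels of female Hypox it was 1789 to 73814, with a median of 1918, so the fall goes with female Hypox channels of high muscle signal. In males the muscle median was -0.02 on the first array and 2.99 on the second. Their part was not tested.

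**Figure D4:**
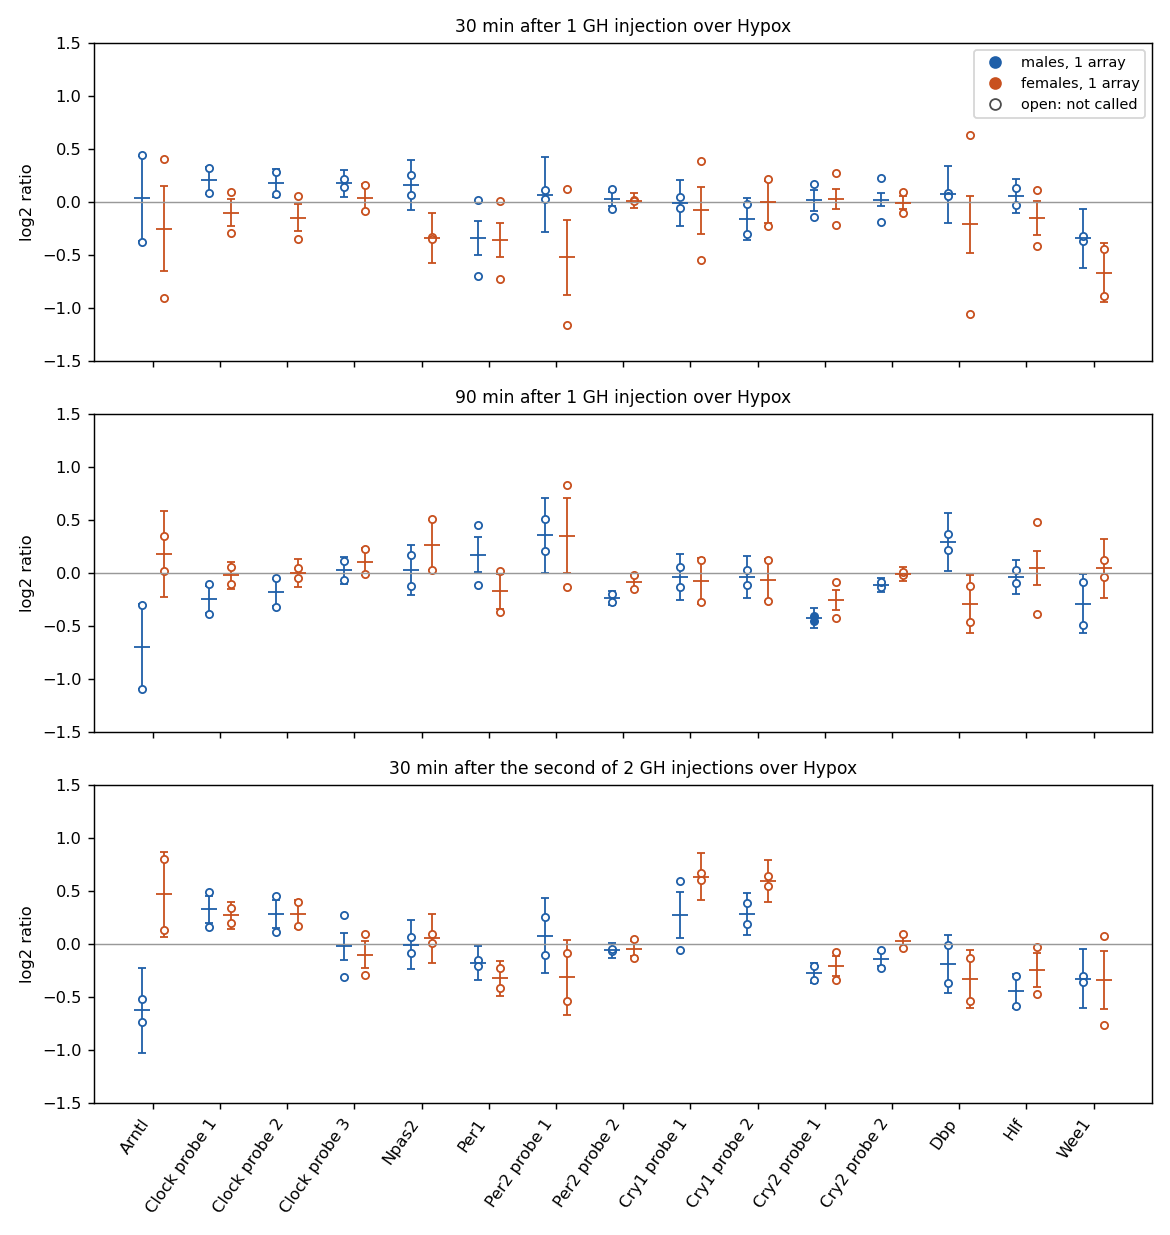
Log2 ratio of GH-treated over Hypox liver for the 15 probes at 3 schedules (blue males, orange females). Points are single arrays, open where not called, and bars are means ± SE. The only filled points are those of Cry2 probe 1 in males at 90 min, and the arrays of Arntl, Per2 probe 1 and Dbp lie far apart in females at 30 min.

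The difference between the sexes in the effect of GH was called for 0 of 10 genes at 30 min (0.00308% of all probes, 0% higher), at 90 min (0.00923%, with 0.00615% higher and 0.00308% lower) and after 2 injections (2.11%, with 1.26% higher and 0.846% lower). In limma 0 genes had an unadjusted p under 0.05 in each of the 3. For Arntl the differences were 0.29 ± 0.57, -0.88 ± 0.57 and -1.09 ± 0.57, with 95% intervals of -0.95 to 1.52, -2.11 to 0.36 and -2.32 to 0.14.

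Of the 13 clock partners 5 were called after 2 injections in males, all lower, against 8.57% of all probes lower. Rora, an orphan receptor that activates Arntl, was at -0.16 and -0.88 on the arrays for its brighter probe, and fell by 0.52 ± 0.14 (adjusted p = 0.021). On the same male arrays the summed signal of 5 cholangiocyte markers was 26025 and 29028 after GH, above the 11020 to 14533 in all channels of male Hypox, and all were above background in both groups. Of the 5 markers 1 was called, Spp1 (1.24 ± 0.21, adjusted p = 0.0012), which liver cells of other types also make, and the median over the list's probes was 0.01. The part of these markers, and of the muscle markers given above, in the partners' result was not tested. In females 1 of 13 partners was called, Csnk1e, a kinase of the period proteins, at -0.43 and -0.61 (-0.52 ± 0.11, adjusted p = 0.016). Nr1d1, Nr1d2, Per3 and Tef, which had risen in Hypox over sham, were not called after GH in any comparison with Hypox.

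The 2 arrays of a comparison differed more for several clock genes than for most probes. The SD of the difference between arrays over the 11 comparisons, after the dye effect, was 0.84 for Arntl, larger than for 98.5% of probes tested. For the brighter Per2 probe it was 0.78 (98.1%), for Wee1 0.61 (96.6%) and for Dbp 0.59 (96.2%). In contrast, the dim probes of Per2 and Cry2 had an SD of 0.11, larger than for 22.0% of probes each. These shares run over tested probes of every brightness, and the part of brightness in them was not tested.

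The differences of Clock went with those of Arntl and the differences of Dbp against them. Clock probe 2 differed in sign from Arntl in 1 of 11 comparisons (Pearson r = 0.94, n = 11), and Dbp in 8 of 11 (r = -0.82). Dbp had a lower r with Arntl than all but 0.874% of probes, and Clock probe 2 a higher one than 99.96% of probes. The points may share mice, since the labels do not say which pools recur, and the values are a description without a test. Per1 (r = -0.07) and the brighter probe of Cry2 (r = -0.01) did not vary with Arntl in this way. The hours of kill of single mice are not given in the sources used here, and whether they differ between pools was not tested.

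**Figure D5:**
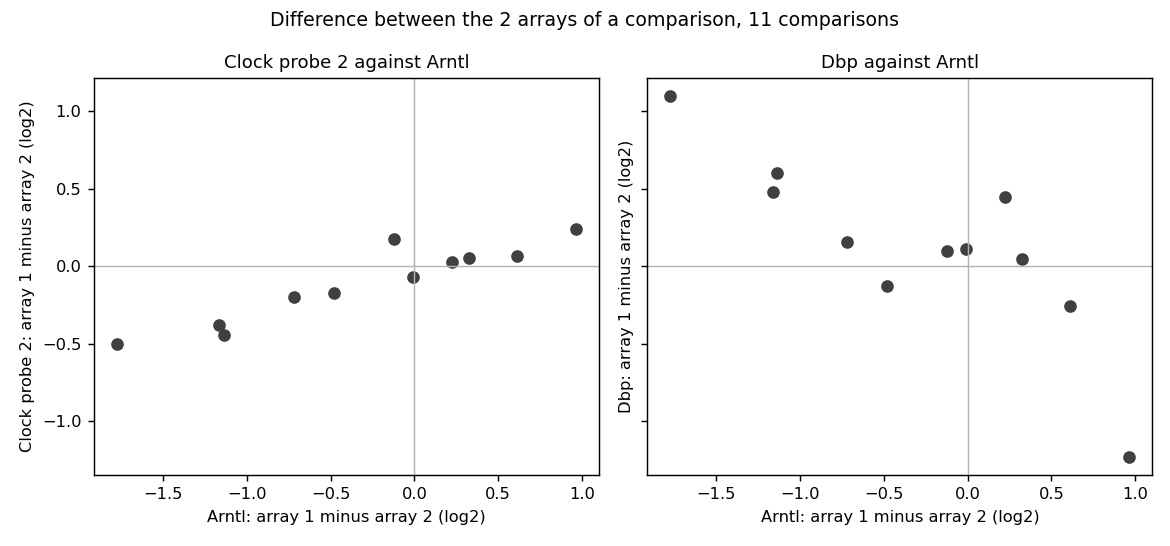
Difference between the 2 arrays of a comparison (array 1 minus array 2, log2, dye effect removed) for Clock probe 2 and for Dbp, each against that of Arntl. The 11 points are comparisons, and those for Clock rise with Arntl while those for Dbp fall.

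Over the 22 arrays, Dbp varied with Cry2 probe 1 (r = 0.87) and against Clock probe 1 (r = -0.87), Cry1 probe 1 (r = -0.87) and Arntl (r = -0.79). It was less close to Hlf (r = 0.26) and Per1 (r = 0.33). The genes most like Dbp among 16661 probes were Tef (r = 0.95), Per3 (r = 0.94) and Prdx2, a peroxiredoxin (r = 0.93). Prdx2 rose far less than Dbp in Hypox over sham, with 0.43 in males and 0.43 in females.

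Among the nearest to Arntl were Slc45a3 (r = 0.92), a sugar transporter family member, and Lrfn3 (r = 0.92). Nearest to Per1 were Akr1c19 (r = 0.86), Usp2, a ubiquitin protease that is itself rhythmic (r = 0.79), and Eepd1 (r = 0.78). Usp2 had the pattern of Per1 on a larger scale, with 1.09 ± 0.52 in males and -0.77 ± 0.52 in females without the pituitary and neither mean called. Nearest to Wee1 were Ndel1 (r = 0.88), Dgat2, an enzyme of triglyceride synthesis (r = 0.88), and Dusp16 (r = 0.86). These correlations run over arrays that may share mice and hold no test.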

How the data were processed

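Liver RNA of 10 groups of mice was measured on 22 Agilent arrays of 2 colours. Per the file headers, the deposited scanner files (Feature Extraction 9.5.1.1 for 16 arrays, 9.5.3.1 for 6) give spot and background intensities and a log10 ratio of red over green. The authors' deposited table gives a log2 ratio, which matched the scanner ratios within rounding. For 16 of its 22 columns it matched the array with the other replicate number of the same comparison, so the scanner files' numbers were used.

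Intensities were background-corrected (normexp, offset 50) and loess-normalized in limma 3.58.1 under R 4.3.3, without control spots and outlier flags. Spots of a probe were averaged. A probe was tested if, in any comparison, both arrays had it above background in either channel. Of all probes 22064 were named through RefSeq and 19110 kept the name in the file. All 22 arrays entered 1 fit of 11 comparisons and a dye term (10 residual degrees of freedom, prior 2.56), with p values adjusted over all probes. For a difference between the sexes, a call also required that their arrays did not overlap. The fit was run on simulated arrays with known changes and noise independent between arrays. That run cannot check the rate of false calls if arrays share pools. The labels do not say which pools or mice recur, arrays were treated as independent, and the number of arrays limits the precision.

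Members and lists were chosen with earlier results of these data known. All members were named. In each list, values are given for genes among the 4 called probes of largest size in a comparison, and the 3 genes most like Arntl, Dbp, Per1 and Wee1 were taken by Pearson r over the arrays. Exceptions are said to be chosen after their values were seen. Some genes that this rule names are not reported here. Alternatives changed the background, centring, filter, probes, model, dye and batch terms, or left out an array.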

Additional observations from a re-analysis of the deposited data

Results flagged for a closer look

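The effect of Hypox differed between the sexes by its own test (limma, males minus females) for 3 probes. For Hlf the difference was 1.13 ± 0.23 (adjusted p = 0.011), with 0.49 in males and -0.64 in females. For Clock probe 1 it was -0.66 ± 0.18 (adjusted p = 0.048), with -1.45 and -0.79. For Clock probe 2 it was -0.68 ± 0.18 (adjusted p = 0.043), with -1.35 and -0.67. Clock probe 3 read 0.04 ± 0.18. The male arrays lay on slides 1 and 2 and the female arrays on slides 3 and 4, scanned on another day, so that slide, scan day and sex coincide in this contrast. With 1 of the 4 arrays left out, Hlf lay between 0.81 and 1.45 and lost its call in 3 of 4 fits. Clock probe 1 lay between -0.75 and -0.57 and Clock probe 2 between -0.79 and -0.58, and both lost their calls in all 4. A fit round the loop of arrays with scan day as a random block, chosen after seeing the data, gave 1.1 for Hlf (adjusted p = 9.1e-05), -0.65 for Clock probe 1 (adjusted p = 0.0013) and -0.72 for Clock probe 2 (adjusted p = 0.00041). The correlation of arrays within a scan day was negative there (-0.09), so that the block took up no spread between days. The block thus does not part sex from scan day. The muscle marker list differed by a median of -2.54 in the same contrast, and its part was not tested.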

How the results depend on the processing

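The count of 8 called genes in male Hypox over sham stayed within 1.5 times in every alternative run. Of 402 recomputed called values 319 kept their call, 83 lost it and 0 reversed. Arntl in males ranged from -2.64 to -1.85, and Dbp from 2.26 to 2.52 in males and from 2.13 to 2.62 in females, all called. Other counts of called genes moved as follows; the cause was not tested. With the authors' ratios the count became 1 for sham males over females (0 before), 2 for Hypox males over females (4 before), 1 for GH at 90 min in females (0), 1 for 2 injections in males (0), 0 for males over females at 30 min (2) and 1 for the sex difference in the Hypox effect (2). Offset 16 gave 2 in Hypox males over females and 1 at 30 min. Median centring gave 4 for female Hypox over sham (7 before) and 0 for Hypox males over females, GH at 90 min in males (1 before), 30 min and the sex difference, and cut the probes called in female Hypox over sham from 10251 to 2389. No filter gave 1 at 30 min. The loop model gave 2 for sham, 9 for Hypox males over females, 2 at 90 min in males, 7 at 30 min and 6 for the sex difference, also 6 with scan day as a random block (added after seeing the data). Without the dye term the counts were 2, 0 (90 min), 1 (30 min) and 1 (sex difference). Each comparison fitted alone gave 1 for sham, 1 for 2 injections in either sex, and 0 for Hypox males over females, 90 min in males, 30 min and the sex difference. Leaving out an array gave 0 to 1 for Hypox males over females, 0 at 90 min in males, 0 to 3 at 30 min and 0 to 2 for the sex difference.

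Replicate numbers were not taken to pair the arrays. The correlation of array differences was over 0.1 in 19 of 55 pairs of comparisons, with a range of -0.37 to 0.87. It cannot decide whether pools recur, since comparisons without a common group need not correlate and a shared pool can give either sign. Cish, a target of GH, was at 0.51 and -3.17 in sham males over females. In male Hypox over sham it was at -4.21 and -0.61. Cish was at -4.39 and -3.89 in female Hypox over sham, and at 0.76 and 0.25 in Hypox males over Hypox females. Both comparisons with male sham thus read less Cish in male sham on array 2 than on array 1. Male sham pools that differ and recur by replicate number would give this pattern, and their recurrence was not tested. If pools recur by replicate number, the SE of fits that join comparisons may be misstated. With the replicate block males over females at 30 min had 1 called gene in place of 2, with Wee1 at 1.43 (adjusted p = 0.056), and no other call of a named clock gene was lost. Scan day as a block in the main model was not run, since both arrays of a comparison were scanned on 1 day. Slide as a block lost 0 calls. The correlation of arrays within a slide was negative (-0.06), so that this block took up no spread between slides. With 2 arrays a comparison, and Npas2 above background in 38 of 44 channels, small differences may go undetected.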
